A study of Homo sapiens with 10 samples.

Results

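The genes described here encode factors of translation elongation in the cytosol, except EEF1E1, whose protein resembles some of their subunits. All are called elongation factor genes below. The gene ends were searched for ChIP-seq peak summits, the points of most enriched chromatin after precipitation of a protein. The cells were HEK293T, a line from human embryonic kidney. The 7 genes EEF1A1, EEF1A2, EEF1B2, EEF1D, EEF1G, EEF1E1 and EEF2 were taken by name from the 20037 protein-coding genes of the RefSeq table (GRCh38.p14). WDR5, a scaffold subunit of the histone H3 lysine 4 methyltransferases of the COMPASS family, was precipitated from EMBOW knockout (KO) cells and from wild-type (WT) cells. EMBOW is a microprotein named in the study's title together with WDR5. The third list, called EMBOW-F, came from an anti-FLAG precipitation of cells that stably expressed EMBOW-FH, a tagged form. All 3 chromatin preparations were digested with micrococcal nuclease. Each list stands for 1 library, so no value has a replicate, and nothing was tested. The labels do not say whether the KO cells are 1 clone. The lists measure neither EMBOW nor RNA, so they check neither the knockout nor the identity of the cells.

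The KO list held 21055 summits, the WT list 17660 and the EMBOW-F list 93143. Each summit is a 1-bp position with a −log10 q, the score the authors' peak caller gave it. These scores are the authors' own and were used only to rank summits inside a list, with rank 1 for the highest. Rank is also given as a percentage of the list, so that a small percentage is a high place. Read depth is unknown, and list length can vary with depth, so ranks from the KO and WT lists set side by side do not measure a change in binding.

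During elongation, eEF1A brings aminoacyl-tRNA to the ribosome as a complex with GTP, and the eEF1B complex exchanges the spent GDP for GTP. eEF2 then moves the tRNAs and the mRNA along by translocation. EEF1A1 and EEF1A2 encode closely related forms of eEF1A, of which EEF1A1 is expressed in most tissues and EEF1A2 mainly in neurons and muscle. EEF1B2 and EEF1D encode exchange subunits of eEF1B, and EEF1G encodes its structural gamma subunit. EEF1E1, also named AIMP3, encodes a protein of the multi-synthetase complex that resembles the eEF1 subunits. Messenger RNAs of many of these factors start with a run of pyrimidines, the TOP element, through which mTOR signalling controls their translation.

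The RefSeq promoter table (GRCh38.p14) held windows for 5 of the 7 genes, EEF2, EEF1G, EEF1A1, EEF1B2 and EEF1E1. They are shown because they run from the highest-ranked gene of the group to the gene without a summit. Each line gives 250 bases before and 20 bases from the annotated start, 5′ to 3′ along the gene. Capitals mark a TOP start and exact matches, on either strand, to the E-box CACGTG, to the GC box GGGCGG and to the TATA box TATAAA. They also mark the CCAAT motif and the longer form TATATAA.
EEF2 promoter, chr19:3985444-3985713, minus strand: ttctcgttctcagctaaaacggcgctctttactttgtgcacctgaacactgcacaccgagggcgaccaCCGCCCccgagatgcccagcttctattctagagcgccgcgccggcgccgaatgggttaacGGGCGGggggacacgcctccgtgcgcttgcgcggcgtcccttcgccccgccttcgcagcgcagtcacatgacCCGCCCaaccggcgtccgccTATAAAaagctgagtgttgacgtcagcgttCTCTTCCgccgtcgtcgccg
EEF1G promoter, chr11:62573872-62574141, minus strand: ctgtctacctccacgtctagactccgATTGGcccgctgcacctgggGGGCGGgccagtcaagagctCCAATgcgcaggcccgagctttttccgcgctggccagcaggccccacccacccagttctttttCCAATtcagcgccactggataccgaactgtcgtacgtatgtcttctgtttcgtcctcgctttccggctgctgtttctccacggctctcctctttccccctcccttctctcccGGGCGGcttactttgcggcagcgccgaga
EEF1A1 promoter, chr6:73521013-73521282, minus strand: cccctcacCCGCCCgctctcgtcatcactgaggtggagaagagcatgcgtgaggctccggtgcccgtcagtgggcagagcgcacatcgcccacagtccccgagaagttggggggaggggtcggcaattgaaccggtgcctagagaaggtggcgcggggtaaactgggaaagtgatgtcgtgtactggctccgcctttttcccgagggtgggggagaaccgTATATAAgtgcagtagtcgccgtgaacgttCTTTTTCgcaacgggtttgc
EEF1B2 promoter, chr2:206159359-206159628, plus strand: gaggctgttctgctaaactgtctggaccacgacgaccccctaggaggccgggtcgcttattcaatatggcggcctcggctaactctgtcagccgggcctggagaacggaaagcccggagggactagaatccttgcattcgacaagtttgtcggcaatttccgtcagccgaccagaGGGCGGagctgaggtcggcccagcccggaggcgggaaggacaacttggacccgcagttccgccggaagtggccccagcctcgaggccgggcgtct
EEF1E1 promoter, chr6:8102529-8102798, minus strand: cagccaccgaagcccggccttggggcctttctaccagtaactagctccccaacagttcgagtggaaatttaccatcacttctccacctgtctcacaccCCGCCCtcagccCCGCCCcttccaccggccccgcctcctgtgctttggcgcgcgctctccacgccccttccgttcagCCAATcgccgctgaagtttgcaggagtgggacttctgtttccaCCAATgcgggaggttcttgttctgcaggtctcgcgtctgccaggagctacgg

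A TOP start was counted where the annotated start was a C followed by at least 4 bases that were C or T. EEF2 began with such a run of 7 bases and EEF1A1 with another of 7 bases, whereas 4.07% of all 35116 promoter windows had a TOP start. EEF1B2 has an upstream and a downstream annotated start. The window of the upstream start, shown above, had none, and that of the downstream start, at 206159895 on chromosome 2, began with a run of 16 bases. The starts annotated for EEF1G and EEF1E1 had no TOP start by this definition. A TATA box lay 30 bases before the start of EEF2, and 11.5% of all windows held TATAAA on either strand. TATATAA, added after the sequences were seen, lay 30 bases before the start of EEF1A1 and 30 bases before the downstream start of EEF1B2. It was held by 2.57% of all windows on either strand. On the gene's strand alone the shares were 7.33% for TATAAA and 1.75% for TATATAA. These shares count a match anywhere in the window, and a share at 30 bases before the start was not computed. EEF2 had 3 GC boxes, EEF1G and EEF1E1 had 2 each, and EEF1A1 and the upstream window of EEF1B2 had 1 each, while 45.0% of all windows had at least 1. CCAAT boxes numbered 3 in EEF1G, 2 in EEF1E1 and 1 in the downstream window of EEF1B2, against 34.6% of all windows with any. No window shown held an E-box, which 7.26% of all windows did. These are matches of letters and describe no binding.

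Of the 7 genes, 6 had a WDR5 summit within 1 kb of a gene end in KO and the same 6 in WT. EEF1E1 was the exception in both lists. Over all protein-coding genes, 53.4% had such a gene-end summit in KO and 50.0% in WT, and 46.4% had one in both. No elongation factor gene was marked in KO alone, as 6.99% of all genes were, or in WT alone, as 3.51% were. Counts of none among 7 genes are near both shares. A gene-end summit among the highest 10% of its list, a limit set with the values known, was held by 3 of the 7 genes in KO (EEF2, EEF1G and EEF1A1) and 4 in WT (EEF2, EEF1G, EEF1D and EEF1A1), against 9.49% of all genes in KO and 8.02% in WT. Among the 6 marked genes, the median rank of the highest gene-end summit was at 16.8% of the list in KO and 3.95% in WT, where all marked genes had medians of 30.2% and 33.7%. The genes ranged from 0.0950% to 58.2% in KO and from 0.0113% to 64.7% in WT, as the plot of KO against WT percentages shows, so its median describes few of its members.

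**Figure D1:**
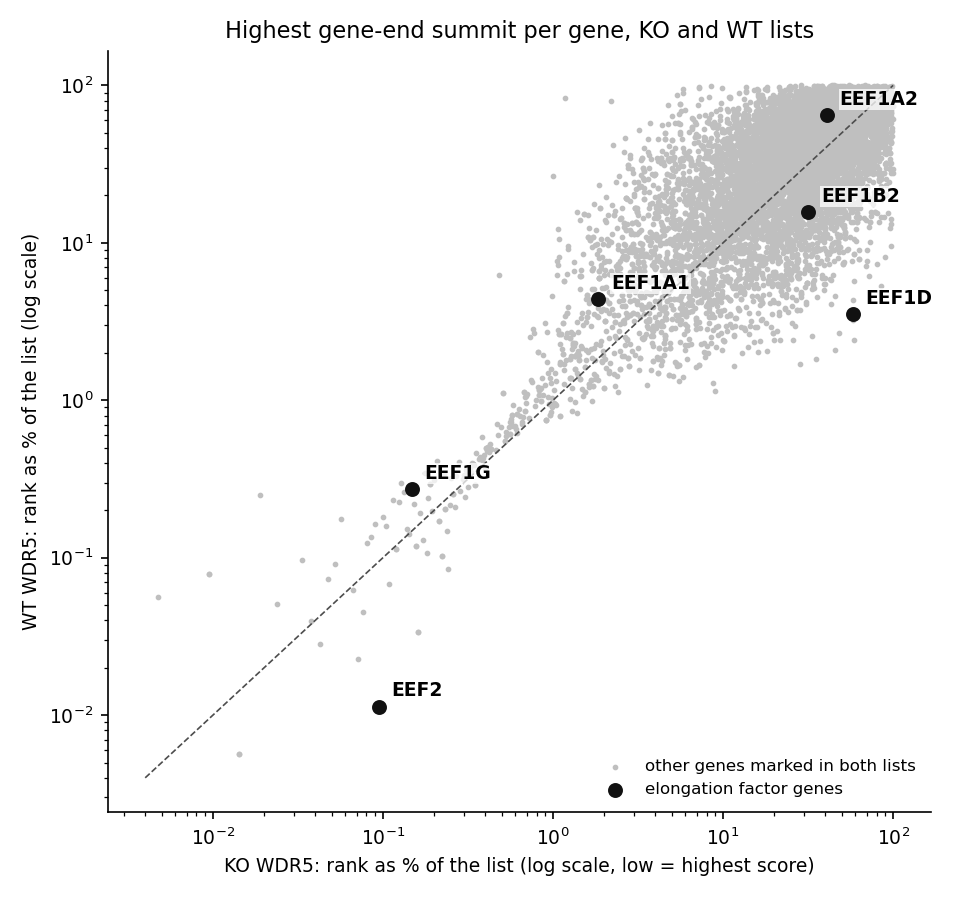
Rank of the highest gene-end WDR5 summit of each gene as a percentage of the list, KO on the horizontal and WT on the vertical axis (both log scales, low values are high ranks); black points are elongation factor genes, grey points the other genes marked in both lists, and the dashed line marks equal percentages. EEF2 and EEF1G lie at the high-ranked corner, EEF1A1 at 1.85% in KO and 4.39% in WT, and EEF1D at 58.2% in KO and 3.51% in WT.

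EEF2, which encodes the translocase, carried the highest summit of the group in both lists. Its KO summit at chromosome 19, position 3985334, had a −log10 q of 924 and rank 20 of 21055. The WT summit at position 3985325, 9 bp away, had a −log10 q of 1367 and rank 2 of 17660. They lay 129 bp (KO) and 138 bp (WT) inside the gene, downstream of the annotated start and past the window printed above. Among genes with a gene-end summit, EEF2 took place 20 of 10707 in KO and 3 of 10011 in WT.

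EEF2 also stood out by the number of summits along its 9408 bp (chromosome 19, 3976056 to 3985463, minus strand). In the gene and 1 kb around it there were 8 summits in KO and 6 in WT, where the median gene with a gene-end summit had 1 in each list. At least 8 in KO were found at 0.327% of such genes, and at least 6 in WT at 0.410%. In each list, 5 of these summits lay inside the gene more than 1 kb from its start. Their −log10 q ranged over 1.53 to 4.80 in KO and 3.44 to 7.66 in WT, far below the summit at the start. Of these 5, 3 per list had a partner from the other genotype at 500 bp or less, so only part of the positions recurred. SNORD37, a small nucleolar RNA gene, lies within EEF2.

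EEF1G, the gamma subunit of eEF1B, followed EEF2 in both lists. Its KO summit at chromosome 11, position 62573713, had a −log10 q of 813 and rank 31. The WT summit at position 62573741 had a −log10 q of 827 and rank 48. The positions were 28 bp apart and lay 178 bp (KO) and 150 bp (WT) inside the gene. A weaker summit lay upstream of the start, 481 bp away in KO (−log10 q 15.6, rank 3437) and 532 bp away in WT (10.6, rank 5025), and these were 51 bp apart. It also lies within 1 kb of an end of TUT1, which encodes a terminal uridylyltransferase. Inside EEF1G, more than 1 kb from the start, KO had 3 further summits with a −log10 q of 4.57 to 6.13, and WT had 0. The nearest WT summit to any of these 3 was 3058 bp away. At least 5 summits in the gene and 1 kb around it, the KO number, were found at 1.80% of marked genes in KO, whereas WT had 2, a number reached at 39.2% of marked genes in WT.

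EEF1A1, the widely expressed eEF1A gene, had its highest summit on nearly the same base in both genotypes. The KO summit at chromosome 6, position 73520615, had a −log10 q of 42.4 and rank 389, and the WT summit at position 73520616 had a −log10 q of 26.0 and rank 776. They stood 1 bp apart, 417 bp (KO) and 416 bp (WT) inside the gene. Of the genes marked in both lists, 1.78% had their highest summits within 1 bp of each other. The distance into the gene was longer than at EEF2 and EEF1G. Over stranded genes with their highest summit near the 5′ end, the median position was 190.5 bp inside the gene in KO (quartiles 81 to 347) and 191 bp in WT (89 to 356). Of these, 20.2% (KO) and 21.4% (WT) lay 400 bp or more inside, a limit not planned beforehand.

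Other summits at EEF1A1 recurred less closely. KO had a summit 666 bp upstream of the start (−log10 q 7.85) whose nearest WT summit was 1082 bp away. Inside the gene, KO had 1 summit 2618 bp from the start (7.22), and WT had 3 at 2108, 2877 and 3748 bp (4.14, 2.57 and 4.14). The lower end of EEF1A1-AS1, a long noncoding RNA gene, had a summit 25 bp away in KO (−log10 q 11.5, rank 5642) and 58 bp away in WT (11.9, rank 4130), and these were 33 bp apart.

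EEF1A2, the tissue-restricted paralogue, was marked in both lists at much lower ranks than EEF1A1. Its highest KO summit, at chromosome 20, position 63499506, had a −log10 q of 7.85 and rank 8621, or 40.9% of the list. The WT summit at position 63499475 had a −log10 q of 4.88 and rank 11427, or 64.7%. In the same lists EEF1A1 stood at 1.85% in KO and 4.39% in WT, so EEF1A1 minus EEF1A2 came to −39.1 percentage points in KO and −60.3 in WT. With a q of 1e-05 or less, 6 of the 7 genes were marked in KO and 5 in WT, where EEF1A2 was lost, against 44.5% of all genes in KO and 39.7% in WT. In KO both genes had a gene-end summit on either side of the higher-coordinate end, at EEF1A1 666 bp outside and 417 bp inside. In WT only EEF1A2 of the pair did. EEF1A2 had a summit on either side of its higher-coordinate end, 423 bp outside and 925 bp inside in KO, and 392 bp outside and 875 bp inside in WT. These pairs were 31 bp (outside) and 50 bp (inside) apart between genotypes. An uncharacterised long noncoding RNA gene, LOC124904955, overlaps that end.

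The exchange subunit gene EEF1B2 had summits on both sides of its start. The KO summits lay 340 bp upstream (−log10 q 8.79, rank 7704) and 559 bp inside the gene (9.97, rank 6687). The WT summits lay 525 bp upstream (10.5, rank 5115) and 499 bp inside (15.0, rank 2762), with a weak one 863 bp inside (1.60, rank 17340). Counted from the downstream start of the gene, the higher summit lay 273 bp inside in KO and 213 bp inside in WT. The KO and WT positions of the inner summit were 60 bp apart, the widest gap among the 6 marked genes, and those of the upstream summit 185 bp. The upstream summit lies within NDUFS1, a gene of respiratory complex I whose higher end is 175 bp from it in KO and 360 bp in WT. The genes end 165 bp apart, so a summit here cannot be assigned to only one of them.

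EEF1D, the other exchange subunit, had nearly coincident summits with very different places in the lists. The KO summit at chromosome 8, position 143597562, had a −log10 q of 5.32 and rank 12245, or 58.2% of the list. The WT summit at position 143597566, 4 bp away, had a −log10 q of 28.7 and rank 620, or 3.51%. The KO percentage minus the WT percentage was 54.6 points. Among the 9307 genes marked in both lists the median of that difference was −3.11 points, the central 90% ran from −44.8 to 31.3, and 0.838% of genes had a difference as high as EEF1D or higher. EEF1D was singled out after its values were seen. In KO the summit ranked lower than the 30.2% median of marked genes, and with both lists cut to 17660 summits it stood at 69.3% in KO and 3.51% in WT.

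Summits on the flanks of EEF1D differed less in rank between the lists. Summits 2158 bp (KO) and 2153 bp (WT) outside the same end were 5 bp apart, with a −log10 q of 6.15 (rank 10812) in KO and 8.88 (rank 6273) in WT. At NAPRT, a gene of NAD synthesis near the other end of EEF1D, the summits were again 5 bp apart, with 7.52 (rank 9135) in KO and 4.14 (rank 12733) in WT. WT held a further summit 1242 bp outside the end (10.4, rank 5223), and the nearest KO summit was 916 bp from it. The main summit also lies 269 bp (KO) and 265 bp (WT) from the lower end of TIGD5, 416 bp from EEF1D, so it belongs to both genes by position.

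EEF1E1 had no gene-end summit in either WDR5 list, as 43.1% of all genes did, and no summit inside the gene or within 1 kb of it. The nearest summits lay 9126 bp (KO, position 8064234) and 9157 bp (WT, position 8064203) from its lower end. They sit 180 bp (KO) and 211 bp (WT) inside the end of BLOC1S5, a gene of lysosome-related organelles that neighbours EEF1E1. Over 250 bases before and 50 after the start, EEF1E1 had 62.7% G and C bases, and this lay between 64.3% at EEF2 and 61.0% at EEF1G and 60.7% at EEF1A1. EEF1B2 had 63.3% in its upstream window and 50% in its downstream window. All promoter windows had a median of 58.7% (quartiles 47.0 to 68.0%).

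**Figure D2:**
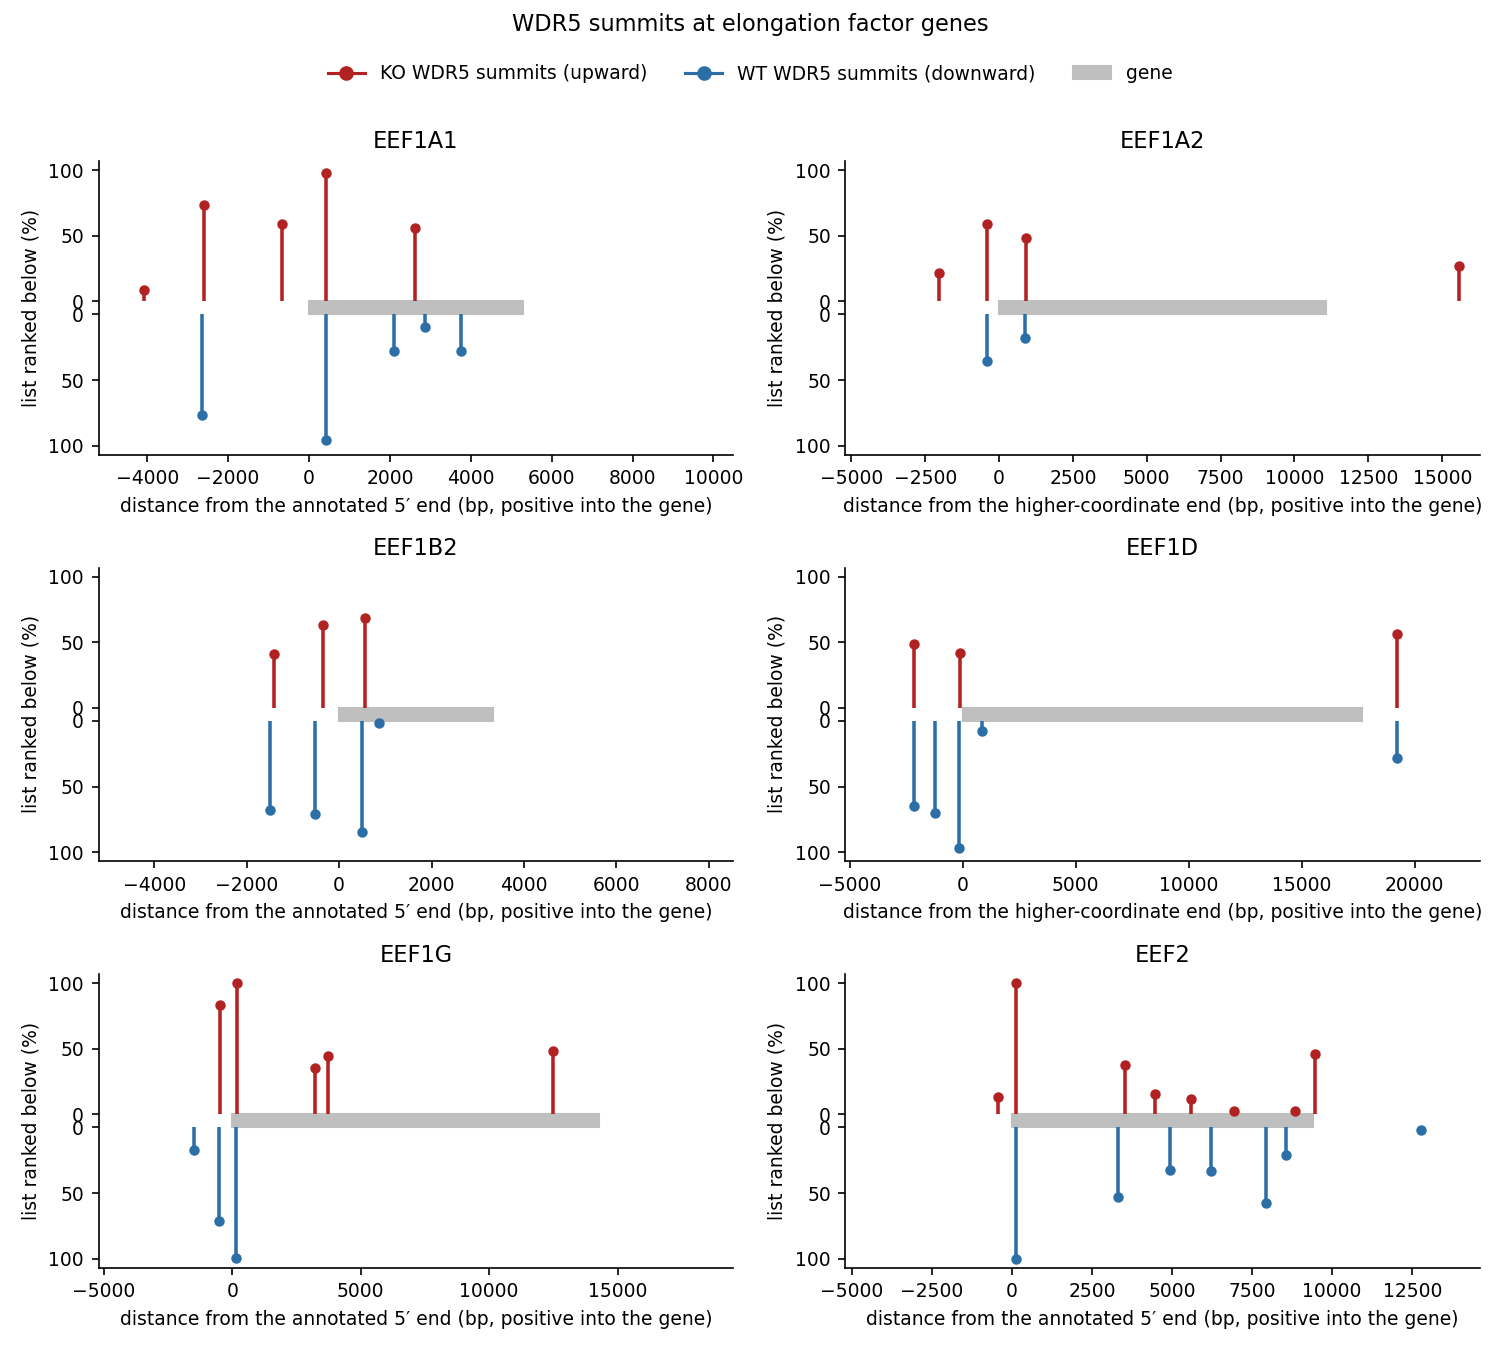
WDR5 summits within 5 kb of the 6 marked genes, by distance from the annotated 5′ end or, for EEF1A2 and EEF1D, from the higher-coordinate end (bp, positive into the gene, grey bar). Red stems point up for KO and blue stems down for WT, and stem length is the percentage of the list ranked below the summit; EEF2 has 5 lower-ranked summits along its body in each list, and the EEF1D stem nearest 0 is short in KO and long in WT.

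The highest KO and WT summits of the 6 marked genes were 1 bp (EEF1A1), 4 bp (EEF1D), 9 bp (EEF2), 28 bp (EEF1G), 31 bp (EEF1A2) and 60 bp (EEF1B2) apart. The median was 18.5 bp, against 78 bp over the 9307 genes marked in both lists (quartiles 25 to 252 bp). All 6 lay within 500 bp of a summit of the other genotype, as did 92.8% of those genes. For 5 of the 6 the highest summits lay within 50 bp, a limit not planned beforehand, against 40.1%. The closest summits were not those of the highest-ranked genes, since EEF1D and EEF1A1 were closer than EEF2 and EEF1G. EEF1A2 and EEF1B2, with the widest gaps, ranked below the others in WT (64.7% and 15.6% of the list). In KO the lowest rank was that of EEF1D (58.2%), whose gap was 4 bp. A relation of closeness to rank was not tested.

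**Figure D3:**
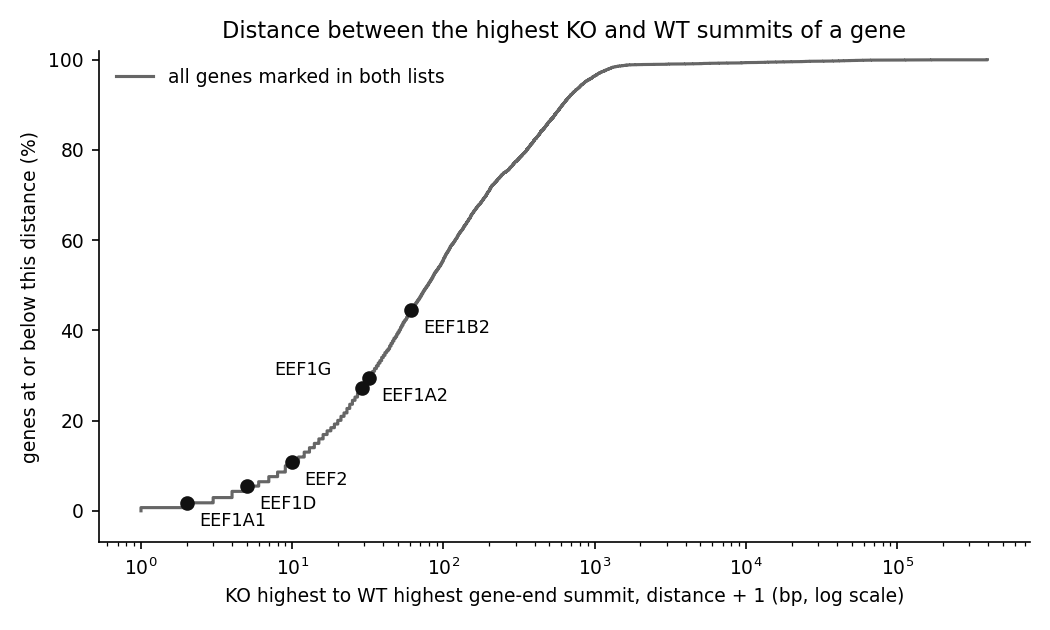
Share of genes (%) whose highest KO and WT gene-end summits lie at or below a given distance (bp, plus 1, log scale), for all genes marked in both lists (line) and the elongation factor genes (points). EEF1A1 at 1 bp is the closest of the 6 and EEF1B2 at 60 bp the farthest, and all 6 lie below the overall median of 78 bp.

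EMBOW-F summits were absent from the ends of all 7 elongation factor genes (0 of 7), while 1.40% of all protein-coding genes had one. Within 5 kb the count was again 0 of 7, where 3.63% of all genes had one. At both distances a count of 0 of 7 is near the background. The nearest EMBOW-F summits lay between 345418 bp (EEF1A1) and 7396122 bp (EEF1A2) away, with a median of 960444 bp. Over all protein-coding genes the median was 1546767 bp (quartiles 385475 to 4015438). EEF2, with the highest WDR5 ranks, was 5537159 bp from an EMBOW-F summit, and 17.9% of genes were as far or farther. Its chromosome 19 had 225 EMBOW-F summits in all, and chromosome 20 of EEF1A2 had 127, against 8887 on chromosome 6 of EEF1A1 and EEF1E1. Chromosome 2 of EEF1B2 had 10372, chromosome 11 of EEF1G 4740 and chromosome 8 of EEF1D 2387. These counts were not scaled to chromosome length.

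EEF1A1 and several of its partners have processed pseudogenes, copies made from the mRNA that lack the promoter. Reads from near-identical exons could be placed on either, which was not tested. RefSeq names 75 pseudogenes after these 7 genes, 50 of them after EEF1A1. A WDR5 summit lay within 1 kb of an end of 1 of the 75 in KO (EEF1DP3, −log10 q 4.26, rank 14245) and of 0 in WT, against 2.51% and 2.10% of all 17051 RefSeq pseudogenes. The EMBOW-F list had summits at 7 of the 75, of which 6 were named after EEF1A1 and 1, EEF1GP1, after EEF1G, against 5.59% of all pseudogenes. The highest of these was at EEF1A1P11 (−log10 q 6.29, rank 6547 of 93143), 752 bp from its end.

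In the authors' deposited table of EMBOW-dependent WDR5 target transcripts, 0 of the 7 elongation factor genes were overlapped by a listed transcript. In the authors' deposited table, transcripts overlapped 11.5% of all protein-coding genes, so a count of 0 of 7 is near that background. The sources used here do not say how these transcripts were chosen.

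Each marked gene was set beside the genes with the closest percentages in both WDR5 lists (the larger of the KO and WT differences, over about 9280 genes with the same EMBOW-F call). Closest to EEF2 were RPL10A (ranks 15 in KO and 4 in WT), RACK1 (16 and 8) and RPS14 (14 and 11), which all encode proteins of the ribosome. Closest to EEF1G were RPS3A (28 and 46), RPL39 (27 and 53) and RPS6 (39 and 42), which also encode ribosomal proteins. EEF1A1 fell among other kinds of genes, with NRBP2 and PUF60, which share a summit (398 and 803), and TM7SF3 (434 and 765). EEF1A2 was closest to CYLD (8621 and 11427, the same tied scores), RTCA (8575 and 11427) and MCC (8613 and 11499). EEF1B2 was closest to AUH (6687 and 2715), SAMM50 (6628 and 2752) and TTC9 (6565 and 2664). EEF1D was closest to AKR1B1 (12262 and 573), MED10 (12197 and 767) and HOXA5 (12340 and 424). The measure has only 2 values per gene, and many low scores are tied.

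Genes of related lists, chosen with earlier results of these data known, are set beside the shares of 53.4% in KO and 50.0% in WT over all genes. Among enzymes that modify the elongation factors, 12 of 14 had a gene-end summit in KO and 12 of 14 in WT. DPH7, of the pathway that makes the diphthamide residue of eEF2, had the highest of their KO summits (rank 337, and 644 in WT), and the kinase gene EEF2K had ranks 1036 in KO and 2362 in WT. EEF2KMT, an eEF2 lysine methyltransferase gene, was marked in KO (rank 5069) with the nearest WT summit 12286 bp from its ends. DPH5 was marked in WT (rank 12496) with the nearest KO summit 93263 bp away. DNAJC24, a further diphthamide gene, was marked in neither.

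Other factors of elongation, termination, rescue and recycling were marked at 10 of 12 in KO and 10 of 12 in WT. HBS1L, a factor for stalled ribosomes, led them in KO (rank 231, and 308 in WT). ABCE1, the ribosome recycling ATPase, was marked in KO (rank 6736) with the nearest WT summit 50539 bp away. EIF5A, a factor for difficult peptide bonds, was marked in WT (rank 1801), 997 bp from an end, and its nearest KO summit at 1427 bp fell just outside the window. GTPBP2 had summits 1618 bp (KO) and 1616 bp (WT) from an end, outside the window in both.

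Mitochondrial elongation factors were marked at 4 of 5 in KO and 4 of 5 in WT. GFM2, a mitochondrial GTPase of ribosome recycling, led in KO (rank 4201, and 7238 in WT). TSFM was marked in KO (rank 13281) and not in WT, through a summit at 57782896 on chromosome 12 that EEF1AKMT3 shares. GFM1 was marked in WT (rank 4267) and not in KO, where the nearest summit was 27265 bp away. The 5 partners in the synthetase complexes, VARS1, AIMP1, AIMP2, KARS1 and MARS1, were all marked in both lists, with AIMP2 highest in KO (rank 3984, and 4623 in WT). None of the genes in these 4 related lists had an EMBOW-F summit at an end. Over all protein-coding genes 1.40% had one, so a count of none is near that background.

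The contrast between EEF1A1 and EEF1A2 was set beside 8 other pairs of a widely expressed gene and a tissue-restricted paralogue. Widely expressed members were marked at 8 of 9 in KO and 8 of 9 in WT. Restricted ones were marked at 5 of 9 in KO (55.6%) and 6 of 9 in WT (66.7%). Over all genes the shares were 53.4% in KO and 50.0% in WT, so the restricted members were not below them. In KO the widely expressed gene ranked higher in 4 of the 4 pairs with both genes marked, by as little as 6.35% for ENO1 against 6.71% for ENO3. Those 4 leave out the pairs with 1 marked gene in KO. In 1 of these the restricted gene was the marked one, since EIF5A2 had rank 817 (3.88%) and EIF5A no gene-end summit, and in 4 it was the widely expressed gene. In WT the widely expressed gene ranked higher in 3 of 6, namely EEF1A1, RPL3 and RPL39, while EIF5A2, GAPDHS and ENO3 ranked above EIF5A, GAPDH and ENO1. At the 8 other pairs, ends of neighbouring genes near these summits were not searched. Such a summit therefore cannot be assigned to the named gene alone. PGK1, a glycolytic gene, had only a low KO summit (rank 20134) and none in WT, and RPL10L, ACTA1 and PGK2 were marked in neither list. RPL3L was marked in WT (rank 5656) and not in KO, 935 bp from an end. PGK2 was the only gene of the pairs with an EMBOW-F summit at an end, at rank 91782, where 1.40% of all protein-coding genes had one.

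**Figure D4:**
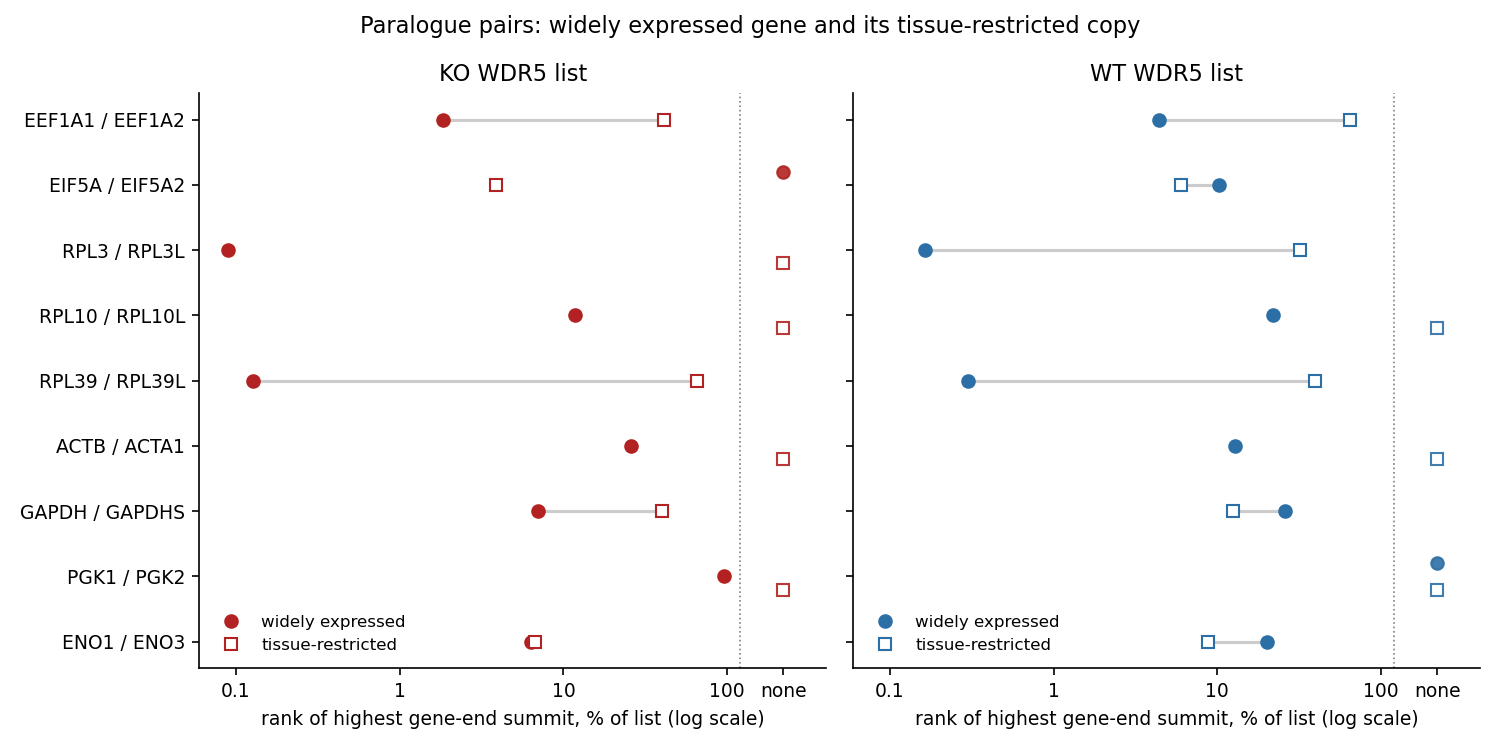
Rank of the highest gene-end WDR5 summit as a percentage of the list (log scale, low values are high ranks, "none" where no gene-end summit was called) for 9 pairs of a widely expressed gene (filled circles) and a tissue-restricted paralogue (open squares), in the KO list (left) and the WT list (right). EEF1A1 lies at higher ranks than EEF1A2 in both lists, and the pair EIF5A and EIF5A2 runs the other way in both, with EIF5A at "none" in KO.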

How the data were processed

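Summits of WDR5 ChIP-seq from KO and WT cells and FLAG ChIP-seq summits from cells with tagged EMBOW were used, from 1 library per group among 10 samples. Per the submitters' processing notes, the genome build was hg38 and the tools included MACS2 2.2.7.1, Bowtie2 2.4.5 and deepTools 3.5.1, whose settings are not listed. The deposited score was read as a −log10 q, since the lowest values, 1.30 in the KO and EMBOW-F lists and 1.31 in the WT list, lie at or just above the −log10 of 0.05, which is 1.30. Which control libraries were used, and whether any were pooled, is not stated there. The EMBOW-F list was matched to the FLAG precipitation, the only ChIP of tagged EMBOW in the labels. H3K4me3 and input libraries were not analysed here.

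A summit within 1 kb of either RefSeq gene end counted as a gene-end summit, and the highest one stood for the gene. Ties shared the better rank. Summits of KO and WT within 500 bp counted as shared. The authors' transcript list was matched by overlap on the same build, after repair of 1 chromosome name. Strand and sequence came from the RefSeq promoter table. Related genes named were the highest-ranked in KO of each list and those not marked in both WDR5 lists, with a few others named after their values were seen (EEF2K and paralogue pair members). Likeness took the 3 closest genes per member. The members and lists were chosen with earlier results of these data known. With 1 library per group no p-values were computed, and counts were set beside the share of all protein-coding genes. Values were computed in Python 3.11.15 with pandas 2.3.3, numpy 2.4.6 and scipy 1.17.1, and plotted in matplotlib 3.10.9. The steps were tested on simulated data, where 200 of 200 planted summits were recovered with 0 mismatches over 20037 genes.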

Additional observations from a re-analysis of the deposited data

How the results depend on the processing

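No paired analysis was possible because each list is 1 library with no replicate. The count of marked elongation factor genes was 6 of 7 in KO and WT with a gene-end distance of 500 bp (44.8% of all genes in KO, 41.6% in WT) or 2 kb (57.0% and 53.4%), and with both WDR5 lists cut to 17660 summits (51.0% and 50.0%). With a q of 1e-05 or less it was 6 in KO and 5 in WT, where EEF1A2 dropped out and 5 genes counted as shared. All genes had shares of 44.5% in KO and 39.7% in WT at that q. At 10 kb, chosen after seeing the data, EEF1E1 came in and the count was 7 of 7 in each, against 65.0% of all genes in KO and 61.2% in WT. EMBOW-F stayed at 0 with 500 bp, 2 kb, 5 kb and the stricter q, where 0.958%, 2.25%, 3.63% and 0.190% of all genes had a summit. The 500 bp window and the stricter q could only keep a count of 0. Partner distances of 250 bp, 1 kb and 5 kb left 6 shared genes, which was fixed in advance because the widest gap was 60 bp. Of 50 related genes, 41 were marked in KO and 41 in WT, against 36 (WT, 500 bp) to 43 (KO, 2 kb) with other windows and 32 (KO) and 33 (WT) at the stricter q. EEF1A1 minus EEF1A2 in KO was −64.4 percentage points at the stricter q and −46.6 with equal list lengths, because a shorter list raises every percentage, and it could not be computed for WT at the stricter q. Of 47 member percentages under alternatives, 31 stayed within their counting interval and 16 moved. The interval treats rank over list length as a share and measures no spread between libraries. WT percentages could not change with equal list lengths, since WT is the shorter list. At 500 bp EEF1B2 stood at 36.6% in KO, and at 2 kb EEF1D took the summit at NAPRT, at 43.4% in KO. Unknown depth limits all comparisons of ranks between lists.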
